A study of Mus musculus with 6 samples.

Results

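Leukocytes leave the blood in steps, and each step has its own pair of adhesion molecules. Selectins on activated endothelium slow the cell by binding PSGL-1, integrins on the leukocyte then hold it by binding ICAM-1, ICAM-2 or VCAM-1 on the vessel wall, and the cell crawls out into the tissue. In the liver much of this takes place in the sinusoids, where integrins and VCAM-1 carry more of the load than selectins do, and in steatohepatitis the recruited cells add to the inflammation. The 10 genes described here are the parts of this machinery. They are 6 genes of the leukocyte side (the integrin chains Itgam, Itgax, Itgal, Itgb2 and Itga4, and Selplg, which encodes PSGL-1) and 4 genes of the endothelial side (Icam1, Icam2, Vcam1 and Sele). They were chosen by name, with earlier results of these data known. The shares of all genes given beside them below are therefore a background and not a test. Each of the 10 was found once among the 29734 genes of the deposited table. All 10 had enough counts to be tested.

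The table holds mRNA levels in livers of male mice, sequenced after oligo(dT) selection. The Prdx1 C52S group (3 libraries, numbered 1, 2 and 4) carried Prdx1 with serine in place of cysteine 52, the peroxidatic residue of this peroxide-reducing enzyme, and the WT group (3 libraries, numbered 6, 8 and 9) carried the wild-type gene. All mice were given a Western diet (labelled WD) for 20 weeks from an age of 8 weeks, so no group on a control diet was analysed here and nothing below shows what the diet did. The labels do not say whether the mice were littermates, or whether each library is 1 animal, so p-values measure the spread between these libraries. From the title of the series, the question was whether the C52S allele lowers inflammation in steatohepatitis.

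Depth was 60326469 to 76164949 estimated counts a library. One sequenced fragment appeared to be worth about 4 of these counts, which gives 15081617 to 19041237 fragments. Levels are FPKM, a unit scaled to transcript length and library depth, so that genes can be compared with each other. Differences are log2 fold changes, Prdx1 C52S minus WT, from edgeR on the estimated counts with TMM scaling. The threshold was an adjusted p of 0.05 over all 18931 genes tested. The library WT 8 stood apart. The bile duct marker Krt19 was at 0.507 to 1.59 FPKM in Prdx1 C52S, and at 3.97, 30.9 and 2.09 FPKM in WT 6, 8 and 9. The Kupffer cell marker Clec4f was at 29.3 to 45.7 FPKM in Prdx1 C52S, and at 44.8, 2.56 and 46.0 FPKM in WT 6, 8 and 9. The main results are therefore also given without it. The tissue label was borne out by the hepatocyte marker Alb, at 18116 to 22278 FPKM in every library.

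In FPKM, 5 of the 6 leukocyte-side genes and 2 of the 4 endothelial-side genes were lower in every Prdx1 C52S library than in every WT library. Itgam, Vcam1 and Itgax had the largest differences, and Icam2, Itgal and Sele had overlapping groups. In bulk liver RNA, fewer cells of a type and less RNA per cell cannot be told apart, and summed pan-leukocyte markers were lower too (53.4 to 61.8 FPKM in Prdx1 C52S, 95.5 to 113 FPKM in WT). The groups were thus apart, with Prdx1 C52S lower, in 7 of the 10 genes (36.7% of all genes tested were, and 6.09% were apart in the other direction). After TMM scaling the count was again 7 (18.0% of all genes). At an unadjusted p below 0.05, 7 of the 10 were lower and none was higher, beside 14.8% lower and 11.5% higher among all genes tested. A log2 fold change below 0 was seen in 9 of the 10, beside 53.0% of all genes. The median log2 fold change of the 10 was -0.70, against -0.03 for all genes tested. No member passed the adjusted threshold with all 6 libraries in edgeR's quasi-likelihood test, where 0 of 18931 genes passed in either direction (0% lower, smallest adjusted p = 0.0553).

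How many members passed depended on the test and on the library WT 8. Without WT 8, 5 of the 10 members fell in the same edgeR test (Itgam, Vcam1, Itgb2, Itgal and Itga4), beside 1.94% of 19337 genes lower and 2.70% higher. DESeq2 called 7 members lower with all 6 libraries, against 9.10% of genes lower and 7.39% higher, and voom with library quality weights called 7, against 5.31% lower and 5.40% higher. Fewer members passed elsewhere. Library totals without TMM gave 3 members, beside 0.660% of genes lower and 0.185% higher. With no filter on low counts 2 passed, beside 0.306% and 0.353%, and with counts divided by 4 also 2, beside 0.257% and 0.276%. On the log2(FPKM + 1) scale limma called 3, beside 0.497% and 0.206%, and on the log2(FPKM + 0.1) scale 3, beside 1.17% and 0.312%. Without WT 9 edgeR called 2, beside 0.351% and 0.321%, and with any other library left out it called none. TMM scaling also matters for the sizes below, because it moves the median of all genes by 0.31 log2 units relative to scaling by library totals. With library totals the median of the members was -1.01 and that of all genes was -0.34, so the distance between members and all genes was about the same.

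**Figure D1:**
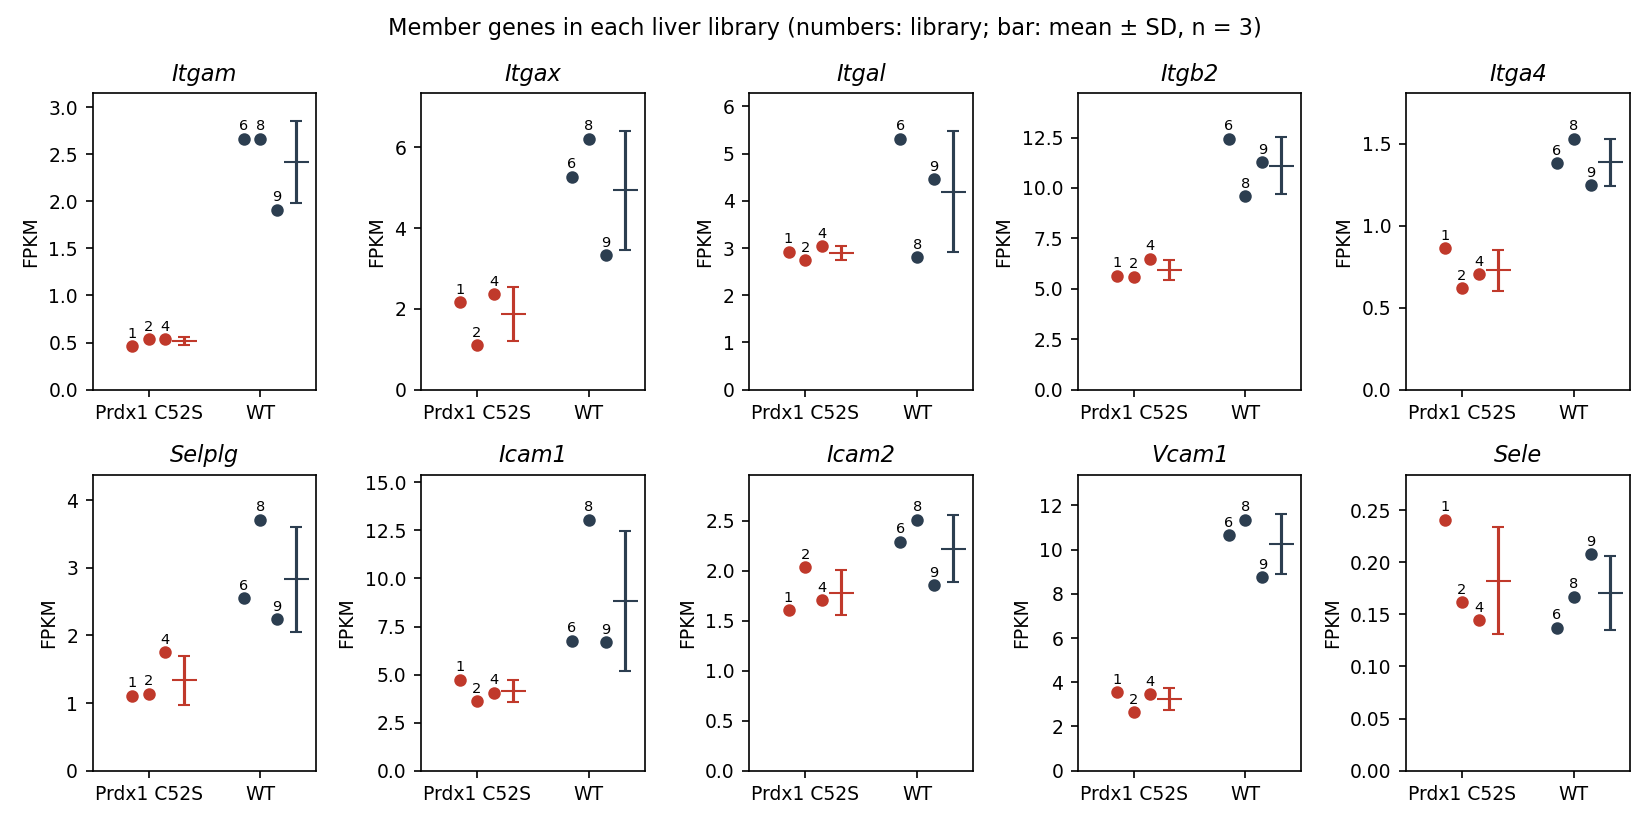
FPKM (vertical axis, from 0) of each of the 10 genes in the 3 Prdx1 C52S libraries and the 3 WT libraries. Points are single libraries with their numbers, and bars are the mean ± SD; the groups are apart in 7 panels and overlap for Itgal, Icam2 and Sele.

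The beta-2 integrins are the leukocyte-specific integrins, each made of Itgb2 (CD18) and 1 alpha chain. Itgb2, the shared chain without which none of the alpha chains reaches the cell surface, had the highest mean FPKM of the members in both groups, although in WT 8 Vcam1 and Icam1 were above it. It was at 5.66, 5.60 and 6.50 FPKM in Prdx1 C52S 1, 2 and 4, against 12.4, 9.60 and 11.3 FPKM in WT 6, 8 and 9. The groups did not overlap in FPKM. After TMM scaling the gap was narrow beside the WT spread, with Prdx1 C52S 4 at 24.4 CPM and WT 8 at 25.4 CPM, and WT 6 at 40.8 CPM. In edgeR Itgb2 stood at -0.64 (log2, SE 0.18, adjusted p = 0.105). Without WT 8 it fell, at -0.81 (SE 0.11, adjusted p = 0.0144 in edgeR). The gene (ENSMUSG00000000290) occupies 77530252 to 77565686 of chromosome 10, plus strand.

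Itgam encodes the alpha M chain (CD11b) of Mac-1, the integrin of monocytes, neutrophils and recruited macrophages, which binds ICAM-1, fibrinogen and the complement fragment iC3b. It was listed at 0.462, 0.539 and 0.539 FPKM in Prdx1 C52S 1, 2 and 4, against 2.66, 2.66 and 1.91 FPKM in WT 6, 8 and 9. Every WT library was above every Prdx1 C52S library by a wide margin. The WT mean was 4.70 times the Prdx1 C52S mean. In edgeR the difference was -1.93 on the log2 scale (SE 0.18, adjusted p = 0.0553), with the third smallest p of all 18931 genes. Without WT 8 Itgam fell by 1.96 log2 units (SE 0.20, adjusted p = 0.00855 in edgeR). The Prdx1 C52S values rest on 182 to 228 estimated counts, or about 46 to 57 fragments a library.

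The assignment of reads bears on this value. A second annotated protein-coding gene, Gm49368 (ENSMUSG00000108596), runs along the same strand through nearly all of Itgam, and 3450 of the 5024 exonic bases of Itgam (68.7%) are also exonic in it. Gm49368 was at 0.444, 0.00351 and 0.268 FPKM in Prdx1 C52S 1, 2 and 4, against 0.0255, 0.00376 and 0.0250 FPKM in WT 6, 8 and 9. It was thus highest in Prdx1 C52S 1, near the level listed there for Itgam itself, next in Prdx1 C52S 4, and close to 0 in the other 4 libraries. With both genes added, the level was 0.906, 0.543 and 0.807 FPKM in Prdx1 C52S 1, 2 and 4, against 2.69, 2.67 and 1.94 FPKM in WT 6, 8 and 9. The groups still did not overlap, and the WT mean was 3.23 times the Prdx1 C52S mean. The summed counts gave a log2 difference of -1.41 (SE 0.22, adjusted p = 0.0602 in edgeR). Without WT 8 the sum passed, at -1.44 (SE 0.23, adjusted p = 0.0244 in edgeR). In that fit 5 members passed as lower, beside 1.94% of genes lower and 2.71% higher. This sum was made after the values were seen. Which of the 2 genes the shared reads came from was not tested.

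Itgax encodes the alpha X chain (CD11c), found on dendritic cells and on macrophages that take up lipid. It was at 2.16, 1.11 and 2.36 FPKM in Prdx1 C52S 1, 2 and 4, against 5.28, 6.21 and 3.32 FPKM in WT 6, 8 and 9. The groups did not overlap, but Prdx1 C52S 2 and WT 9 lay well below the others of their groups. Itgax passed in neither edgeR fit, with -1.09 on the log2 scale (SE 0.30, adjusted p = 0.103) and, without WT 8, -1.01 (SE 0.37, adjusted p = 0.196). It passed in DESeq2 (adjusted p = 0.00808).

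Itgam (chromosome 7 from 128062640 to 128118491) and Itgax (chromosome 7 from 128129547 to 128150657) are neighbours on the plus strand of GRCm38, 11055 bases apart. Itgal lies on the same chromosome from 127296260 to 127335138, also on the plus strand and 727501 bases before Itgam. The 3 alpha chains thus come from 1 region, yet their differences ranged from -1.93 to -0.28 on the log2 scale. The 250 bases before the RefSeq start of the 2 neighbours are shown because these genes lie side by side and both were lower, with the bases GAGGAA, the core bound by the myeloid factor PU.1, in capitals on either strand (TTCCTC is the same core on the other strand). The sequences are from RefSeq, build GRCm38.p6, plus strand, 5′ to 3′, at chr7:128062390-128062639 for Itgam and chr7:128129300-128129549 for Itgax.
Itgam: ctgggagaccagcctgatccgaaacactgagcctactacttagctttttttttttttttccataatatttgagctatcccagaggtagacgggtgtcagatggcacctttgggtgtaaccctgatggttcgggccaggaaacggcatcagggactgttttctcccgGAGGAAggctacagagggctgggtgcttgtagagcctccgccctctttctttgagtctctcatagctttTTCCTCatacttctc
Itgax: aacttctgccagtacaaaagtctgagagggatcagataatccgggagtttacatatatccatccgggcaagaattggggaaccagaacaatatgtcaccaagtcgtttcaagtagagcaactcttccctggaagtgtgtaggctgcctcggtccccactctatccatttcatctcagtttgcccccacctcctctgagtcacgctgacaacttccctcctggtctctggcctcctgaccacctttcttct
The Itgam window holds the core at 2 places, 84 to 79 bases before the start and, on the other strand, 15 to 10 bases before it. The Itgax window holds none. GAGGAA was found on either strand in 23.4% of 32536 windows of this kind, so its presence is common and a description only.

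Itgal encodes the alpha L chain (CD11a) of LFA-1, an integrin of lymphocytes and other leukocytes, which binds ICAM-1 and ICAM-2. It was at 2.93, 2.74 and 3.04 FPKM in Prdx1 C52S 1, 2 and 4, against 5.32, 2.81 and 4.46 FPKM in WT 6, 8 and 9. WT 8 lay within the Prdx1 C52S range, whereas WT 6 and 9 lay above it. With all libraries edgeR gave Itgal -0.28 on the log2 scale (SE 0.28, adjusted p = 0.565). Without WT 8 it fell, by 0.56 log2 units (SE 0.11, adjusted p = 0.0338 in edgeR). Leaving out WT 6 instead brought it to -0.03, so that the value of Itgal rests on which WT library is kept.

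The mix of alpha chains available to Itgb2 can be read as shares of their summed FPKM, which do not depend on library scaling. Itgal made up 55.2 ± 6.37% of the sum in Prdx1 C52S and 36.6 ± 11.3% in WT (SD, n = 3 each). Itgam made up 9.86 ± 2.13% in Prdx1 C52S and 20.8 ± 1.72% in WT, and with Gm49368 added 13.4 ± 1.44% in Prdx1 C52S and 20.9 ± 1.62% in WT. In both chains the groups did not overlap, and with Gm49368 added they still did not. Itgax made up 34.4 ± 8.01% in Prdx1 C52S and 42.3 ± 9.77% in WT, with overlap. Without WT 8 the mean WT shares were 42.9% for Itgal, 19.8% for Itgam (without Gm49368) and 36.9% for Itgax. The fourth partner, Itgad, was close to absent, with at most 0.0609 FPKM in any library. The exact permutation test gave p = 0.10 for Itgam and for Itgal (two-sided, adjusted p = 0.20 over the 4 chains), and 0.10 is the smallest p that 3 against 3 libraries allow. The alpha chains summed to 0.985, 0.784 and 0.924 times the Itgb2 FPKM in Prdx1 C52S 1, 2 and 4, against 1.07, 1.22 and 0.861 times in WT 6, 8 and 9, and these ratios overlapped.

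**Figure D2:**
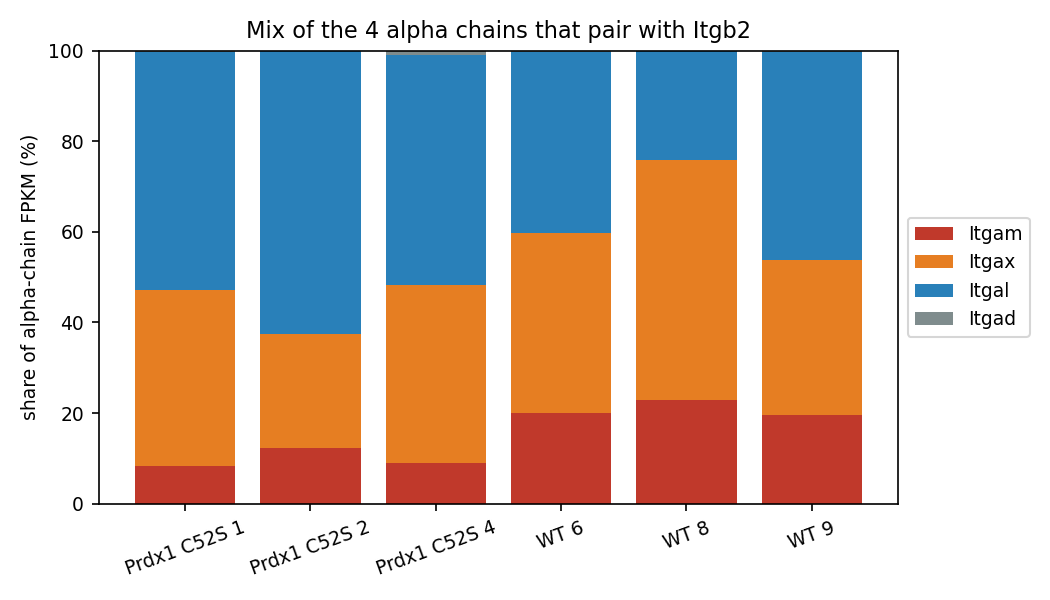
Share (percent of summed FPKM, vertical axis) of the 4 alpha chains that pair with Itgb2, 1 bar a library, Prdx1 C52S libraries on the left. Itgal takes 50.6 to 62.5% in the Prdx1 C52S libraries and 24.1 to 45.8% in the WT libraries, while Itgam takes 8.30 to 12.3% in the Prdx1 C52S libraries and 19.6 to 22.8% in the WT libraries.

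The other leukocyte-side members are Itga4 and Selplg. Itga4 encodes the alpha 4 chain (CD49d), which pairs with Itgb1 as VLA-4, the receptor for VCAM-1 and fibronectin, and with Itgb7. It was at 0.865, 0.619 and 0.706 FPKM in Prdx1 C52S 1, 2 and 4, against 1.38, 1.53 and 1.25 FPKM in WT 6, 8 and 9. The groups did not overlap, and the WT libraries were close together, with a coefficient of variation of 10.2%. The log2 difference of Itga4 was -0.63 in edgeR (SE 0.14, adjusted p = 0.0819). It passed narrowly without WT 8, at -0.66 (SE 0.15, adjusted p = 0.0495 in edgeR). Its partner Itgb1, which most cell types make, was at 44.6 ± 2.04 FPKM in Prdx1 C52S and 59.4 ± 8.79 FPKM in WT (log2 fold change -0.11, edgeR adjusted p = 0.542). The other partner Itgb7 was at 0.836 ± 0.126 FPKM in Prdx1 C52S and 1.73 ± 0.718 FPKM in WT (log2 fold change -0.71, edgeR adjusted p = 0.152). Itga4 spans chromosome 2 from 79255426 to 79333123, and its end overlaps 2581 bases of Cerkl on the other strand. Cerkl was at 0.257 ± 0.0856 FPKM in Prdx1 C52S and 0.383 ± 0.14 FPKM in WT.

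Selplg (ENSMUSG00000048163; chromosome 5 from 113818536 to 113830501, minus strand) encodes PSGL-1, the mucin on leukocytes that selectins bind. It was at 1.11, 1.14 and 1.75 FPKM in Prdx1 C52S 1, 2 and 4, against 2.55, 3.71 and 2.24 FPKM in WT 6, 8 and 9. The groups did not overlap, with Prdx1 C52S 4 nearest to the WT libraries. Its difference in edgeR was -0.77 log2 units (SE 0.22, adjusted p = 0.106) with all libraries and -0.65 (SE 0.22, adjusted p = 0.139) without WT 8. Selplg passed in DESeq2 (adjusted p = 0.0188) and in neither of these edgeR fits.

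On the endothelial side, Vcam1 had the clearest difference. VCAM-1 is the ligand of VLA-4, made by cytokine-activated endothelium and in the liver also by macrophages and stellate cells, so its level is not that of endothelium alone. It was at 3.55, 2.66 and 3.46 FPKM in Prdx1 C52S 1, 2 and 4, against 10.6, 11.4 and 8.76 FPKM in WT 6, 8 and 9. Every WT library was more than double the highest Prdx1 C52S library. Vcam1 stood at -1.37 on the log2 scale in edgeR (SE 0.14, adjusted p = 0.0553), next after Itgam by p. Without WT 8 it fell by 1.40 log2 units (SE 0.14, adjusted p = 0.00855 in edgeR). The values rest on 1974 to 2650 estimated counts in Prdx1 C52S and 6427 to 8354 in WT, so counting error is small here. The gene (ENSMUSG00000027962) occupies 116109949 to 116129688 of chromosome 3, minus strand.

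Icam1 encodes the counter-receptor of LFA-1 and Mac-1, which inflammatory cytokines induce on endothelium and on many other cells. It was at 4.74, 3.63 and 4.05 FPKM in Prdx1 C52S 1, 2 and 4, against 6.76, 13.1 and 6.67 FPKM in WT 6, 8 and 9. The groups did not overlap, and WT 8 was nearly double the other WT libraries. Across all libraries edgeR gave -0.76 log2 units (SE 0.20, adjusted p = 0.0957). Without WT 8 the value was smaller, -0.51 (SE 0.12, adjusted p = 0.0513 in edgeR), and just outside the threshold. Icam1 (ENSMUSG00000037405) spans 21015985 to 21028817 of chromosome 9, plus strand. Icam1 and Vcam1 each overlap an annotated antisense gene with too few counts to be tested.

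Icam2 (ENSMUSG00000001029; chromosome 11 from 106377656 to 106388075, minus strand) encodes ICAM-2, a ligand of LFA-1 that resting endothelium makes constitutively. It was at 1.60, 2.03 and 1.70 FPKM in Prdx1 C52S 1, 2 and 4, against 2.29, 2.51 and 1.85 FPKM in WT 6, 8 and 9. The groups overlapped through Prdx1 C52S 2 and WT 9. Icam2 was at -0.02 log2 units in edgeR (SE 0.20, adjusted p = 0.97). With library totals alone it was at -0.32 (SE 0.24), so its size rests on the scaling, and its sign on which library is kept (-0.13 to 0.07).

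Sele (ENSMUSG00000026582; chromosome 1 from 164048234 to 164057677, plus strand) encodes E-selectin, which endothelium makes only on activation. It was at 0.241, 0.162 and 0.145 FPKM in Prdx1 C52S 1, 2 and 4, against 0.137, 0.167 and 0.208 FPKM in WT 6, 8 and 9. The groups overlapped throughout, and Sele was the lowest member in both. Sele was at 0.36 log2 units in edgeR (SE 0.40, adjusted p = 0.597). Only 29 to 59 estimated counts a library in Prdx1 C52S, about 7 to 15 fragments, and 33 to 51 in WT, about 8 to 13 fragments, lie behind these values, so a moderate difference was not detectable at this depth. The 250 bases before its RefSeq start are given as the contrast to Itgam, with GAGGAA (either strand) and the TATA box TATAAA in capitals (chr1:164047984-164048233, GRCm38.p6, plus strand, 5′ to 3′).
Sele: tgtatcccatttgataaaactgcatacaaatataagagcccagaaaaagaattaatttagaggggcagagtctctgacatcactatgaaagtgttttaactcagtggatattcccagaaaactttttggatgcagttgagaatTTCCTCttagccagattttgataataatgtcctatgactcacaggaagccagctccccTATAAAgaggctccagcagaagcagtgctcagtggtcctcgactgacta
The window holds TATAAA 49 to 44 bases before the start and GAGGAA on the other strand 107 to 102 bases before it. TATAAA was found on either strand in 12.3% of the 32536 windows. RefSeq windows were at hand for 5 members, Itgam, Itgax, Itga4, Icam1 and Sele.

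**Figure D3:**
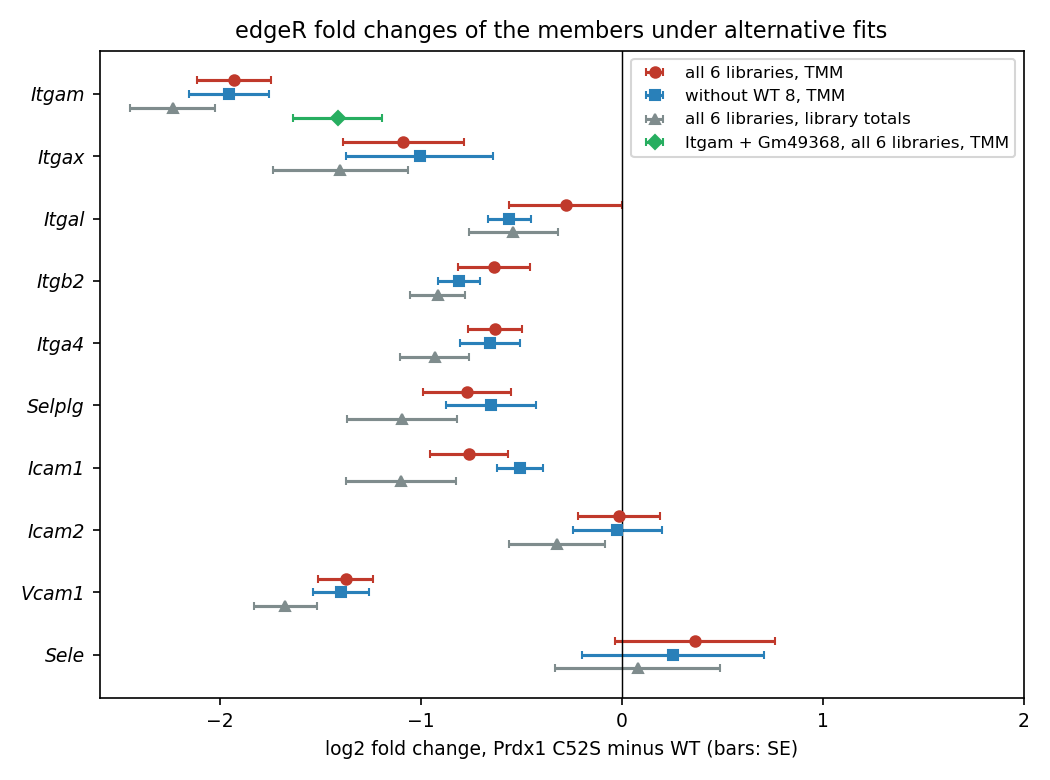
Log2 fold change, Prdx1 C52S minus WT, of the 10 genes with SE bars (horizontal axis), for all 6 libraries with TMM scaling, without WT 8, and with scaling by library totals, and for Itgam also with Gm49368 added. Itgam, Itgax and Vcam1 are farthest to the left in each fit, and Itgam moves to -1.41 with Gm49368 added.

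The order of the levels differed in part between the groups. In Prdx1 C52S livers Itgb2, at 5.92 ± 0.502 FPKM, was followed by Icam1 at 4.14 ± 0.561 and Vcam1 at 3.23 ± 0.493 FPKM, each separate from the next higher gene in every library. In WT livers Itgb2 at 11.1 ± 1.43, Vcam1 at 10.3 ± 1.34 and Icam1 at 8.83 ± 3.66 FPKM overlapped, so their order was not resolved. Below them, Itgal at 2.90 ± 0.149 FPKM in Prdx1 C52S lay above Itgax at 1.88 ± 0.674 in every library, while in WT Itgax at 4.94 ± 1.47 and Itgal at 4.20 ± 1.27 FPKM overlapped. Itgam, listed at 0.513 ± 0.0444 FPKM, was the ninth of the 10 in Prdx1 C52S, and in WT, at 2.41 ± 0.435 FPKM, the seventh. With Gm49368 added, Itgam was at 0.752 ± 0.188 FPKM in Prdx1 C52S, beside Itga4 at 0.730 ± 0.125 FPKM. The ninth place thus rests on the assignment of reads. Sele was last in both groups.

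Among the 10 pan-leukocyte markers, 8 were lower at an unadjusted p below 0.05, beside 14.8% of all genes tested. Of these markers Ptprc (CD45) was at 1.17 ± 0.0606 FPKM in Prdx1 C52S and 2.62 ± 0.452 FPKM in WT. The sums that follow are FPKM without TMM scaling. On that scale 36.7% of all genes tested were apart with Prdx1 C52S lower. Whether the sums stay apart after TMM scaling was not tested. Monocyte markers summed to 7.33 to 9.29 FPKM in Prdx1 C52S and 15.3 to 21.8 FPKM in WT. Most of that sum is Plac8, at 4.80 to 6.58 FPKM in Prdx1 C52S and 10.5 to 14.2 FPKM in WT. Of the 6 monocyte markers 4 were lower at an unadjusted p below 0.05, beside 14.8% of all genes, while Ly6c2 (-0.63) and Chil3 (-0.42) were not. All 10 T and NK cell markers had a log2 fold change below 0, beside 53.0% of all genes, with a median of -1.17. Without WT 8 that median was -0.85, and Klrb1c, at 0.11, was no longer below 0. Macrophage markers summed to 182 to 216 FPKM in Prdx1 C52S and 414 to 471 FPKM in WT. Most of that sum is Lyz2, at 106 to 126 FPKM in Prdx1 C52S and 277 to 314 FPKM in WT. Of the 7 macrophage markers 5 were lower at an unadjusted p below 0.05, beside 14.8% of all genes. Adgre1 (log2 fold change -0.41) and Cd68 (-0.39) were not. Without WT 8, Adgre1 was at -0.67 (edgeR adjusted p = 0.0144) and Cd68 at -0.57 (edgeR adjusted p = 0.0851). In that fit 5 of the 7 macrophage markers passed as lower, beside 1.94% of all genes lower and 2.70% higher. Neutrophil markers summed to 5.07 to 26.0 FPKM in Prdx1 C52S and 27.2 to 35.9 FPKM in WT, with the marker Ly6g listed at 0 in 4 libraries. The low value was Prdx1 C52S 4 alone, with 26.0 and 22.9 FPKM in Prdx1 C52S 1 and 2. Of the 9 neutrophil markers tested, 2 were lower at an unadjusted p below 0.05, beside 14.8% of all genes. Dendritic cell markers summed to 2.74 to 2.98 FPKM in Prdx1 C52S and 3.62 to 5.97 FPKM in WT, and platelet markers to 1.63 to 2.09 FPKM in Prdx1 C52S and 3.22 to 4.25 FPKM in WT. Most of the platelet sum is Pf4, at 1.36 to 1.82 FPKM in Prdx1 C52S and 2.65 to 4.21 FPKM in WT. Of the 4 platelet markers 2 were tested, and the other of these, Ppbp, overlapped (log2 fold change 0.06). Other leukocyte lists overlapped. Kupffer cell markers summed to 166 to 214 FPKM in Prdx1 C52S and 36.3 to 278 FPKM in WT, with 0 of 6 below 0 and a median log2 fold change of 0.34, or -0.18 without WT 8. B cell markers summed to 2.24 to 2.96 FPKM in Prdx1 C52S and 2.65 to 6.00 FPKM in WT, with a median of -0.21, or 0.05 without WT 8. Pan-endothelial markers had sums of 48.2 to 49.6 FPKM in Prdx1 C52S and 51.1 to 73.2 FPKM in WT and 1 of 10 markers lower at an unadjusted p below 0.05, beside 14.8% of all genes. Markers of sinusoidal endothelium summed to 57.0 to 67.1 FPKM in Prdx1 C52S and 29.0 to 74.3 FPKM in WT, and those of large vessels to 25.5 to 31.7 FPKM in Prdx1 C52S and 29.6 to 34.5 FPKM in WT. Both overlapped, with median log2 fold changes of 0.26 and 0.22, or -0.14 and -0.06 without WT 8. Cholangiocyte markers summed to 69.4 to 138 FPKM in Prdx1 C52S and 236 to 852 FPKM in WT, and the highest of these values was in WT 8. Most of this sum is Spp1, which macrophages also make, at 60.1 to 125 FPKM in Prdx1 C52S and 220 to 736 FPKM in WT. All 9 cholangiocyte markers had a log2 fold change below 0, beside 53.0% of all genes. Of these, 7 were lower at an unadjusted p below 0.05, beside 14.8% of all genes. Their median of -2.90 was -1.55 without WT 8, and none passed the adjusted threshold in either fit. The sums of stellate cell and fibroblast markers were 60.6 to 77.2 FPKM in Prdx1 C52S and 84.3 to 131 FPKM in WT. Of these 7 markers 5 had a log2 fold change below 0. The stellate cell markers Lrat (0.67) and Reln (0.53) went the other way, at 0.32 and 0.21 without WT 8. The part of these cell types in the members' values was not tested beyond the ratios that follow.

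Set against the markers of the side each was assigned to, 3 of the 7 genes whose groups were separate in FPKM stayed separate. The share of all genes separate on this scale was not computed. Vcam1 and Icam1 are also made by cells other than endothelium, and the endothelial sum does not follow those cells. Itgax, Itgb2, Itga4 and Selplg then overlapped, and Itgal, Icam2 and Sele, which overlapped before, still did. Each leukocyte-side gene was divided by the pan-leukocyte sum, and each endothelial-side gene by the pan-endothelial sum, within each library. Itgb2 was then at 9.15 to 10.6% of the leukocyte sum in Prdx1 C52S and 8.46 to 11.8% in WT. Itga4 was at 1.15 to 1.40% in Prdx1 C52S and 1.24 to 1.35% in WT, Selplg at 1.80 to 2.85% in Prdx1 C52S and 2.30 to 3.27% in WT. Itgal was at 4.74 to 5.13% in Prdx1 C52S and 2.48 to 4.79% in WT, where WT 8 was the low value.

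Itgam, Vcam1 and Icam1 stayed separate on this scale. Itgam was at 0.748, 1.01 and 0.876% of the leukocyte sum in Prdx1 C52S 1, 2 and 4, against 2.40, 2.35 and 2.00% in WT 6, 8 and 9, a log2 difference of -1.36. With Gm49368 added, it was at 1.47, 1.02 and 1.31% in Prdx1 C52S, against 2.42, 2.35 and 2.03% in WT, a log2 difference of -0.85. Vcam1 was at 7.17, 5.38 and 7.18% of the endothelial sum in Prdx1 C52S 1, 2 and 4, against 17.1, 15.5 and 17.2% in WT 6, 8 and 9, a log2 difference of -1.35. Icam1 was at 9.56, 7.35 and 8.40% in Prdx1 C52S 1, 2 and 4, against 10.9, 17.8 and 13.1% in WT 6, 8 and 9, a log2 difference of -0.70. All 3 reached the smallest possible p of the exact permutation test (two-sided p = 0.10, adjusted p = 0.333 over the 10 members), which cannot pass the threshold with 3 libraries a group. Relative to Cdh5 alone in place of the endothelial sum, the groups of Icam1 overlapped, whereas those of Vcam1 did not. Relative to Ptprc alone, Itgal was higher in every Prdx1 C52S library than in every WT library (log2 difference 0.67, two-sided exact permutation p = 0.10), and relative to Cdh5 alone so was Icam2 (0.19, exact p = 0.10). Neither of these differences was computed without WT 8. Relative to the leukocyte sum the log2 difference of Itgal was 0.37 with all libraries and 0.06 without WT 8.

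**Figure D4:**
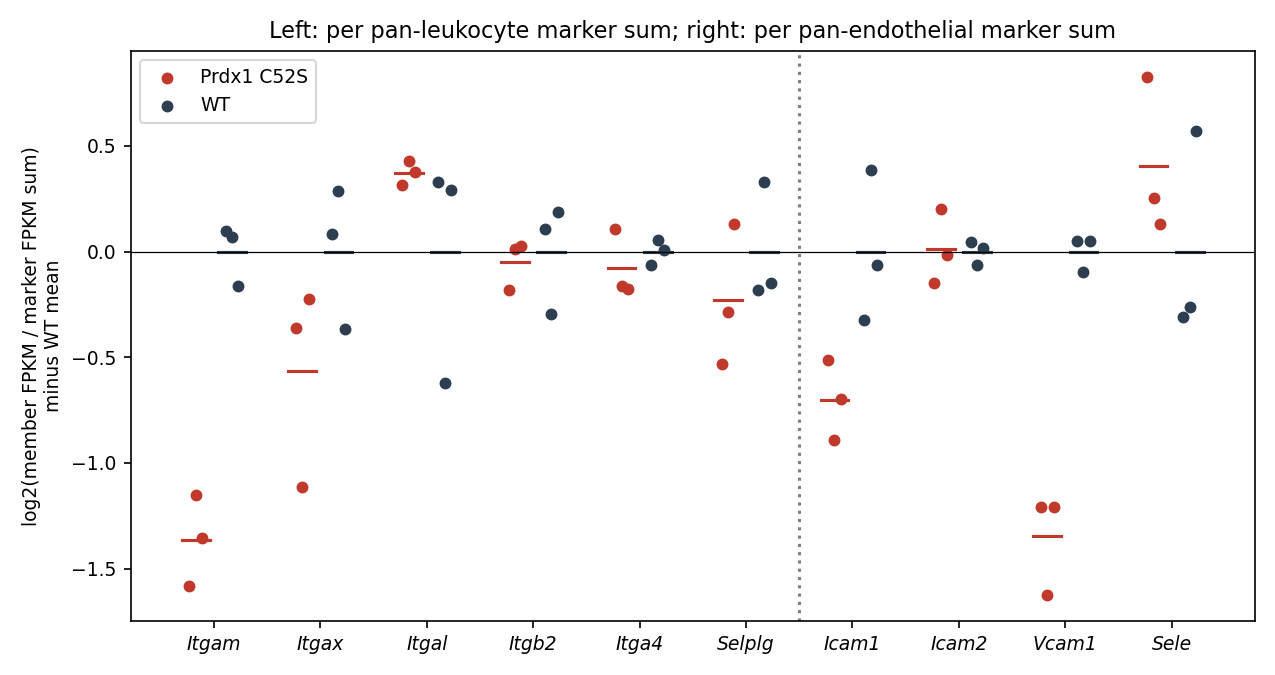
Log2 ratio of each member to the marker sum of its assigned side, minus the WT mean (vertical axis), for single libraries with group means as lines, leukocyte-side genes left of the dotted line. Itgam, Icam1 and Vcam1 are the genes whose Prdx1 C52S points all lie below their WT points; Itgam is drawn without Gm49368.

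The genes with the profiles most like those of Itgam and Vcam1 over the 6 libraries were looked up next. Of 10950 genes with at least 1 FPKM in both groups, the 3 closest to Itgam were Ms4a6c, Trbc2 and Vcam1, with root mean square differences of 0.25, 0.33 and 0.33 between centred log2 CPM profiles. Trbc2 is a T cell receptor constant gene. The 3 closest to Vcam1 were C3ar1, Gpr65 and Lyz2, with differences of 0.16, 0.18 and 0.18. Itgam itself was below the 1 FPKM minimum in Prdx1 C52S and was no candidate for Vcam1. C3ar1 encodes the receptor for the complement fragment C3a, and Lyz2 the lysozyme of macrophages. C3ar1 was at 1.76 ± 0.348 FPKM in Prdx1 C52S and 4.69 ± 0.449 FPKM in WT. Lyz2 was at 118 ± 11.1 FPKM in Prdx1 C52S and 302 ± 21.6 FPKM in WT, and Ms4a6c at 2.69 ± 0.635 FPKM in Prdx1 C52S and 9.55 ± 0.81 FPKM in WT. The likeness includes the group difference itself, and the profile of Itgam here is without Gm49368.

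The rest of the adhesion pathway was described with 7 lists of 80 genes that hold none of the members. These lists too were written with earlier results of these data known. Of these, 78 were tested, none passed with all 6 libraries, 61 had a fold change below 0 (53.0% of all genes did) and the median log2 fold change was -0.31. At an unadjusted p below 0.05, 34 were lower and 1 was higher, beside 14.8% lower and 11.5% higher among all genes, a background that also applies to the counts of each list below. Without WT 8, 9 passed as lower and 1 as higher, beside 1.94% and 2.70% of all genes.

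The 18 genes that switch integrins on from inside the cell had a median of -0.45, with 10 lower and 1 higher at an unadjusted p below 0.05. Fyb, the adaptor ADAP that links immune receptors to integrins, was at 1.74 ± 0.0631 FPKM in Prdx1 C52S and 3.82 ± 0.132 FPKM in WT (log2 fold change -0.85, SE 0.13, edgeR adjusted p = 0.0601). It fell without WT 8 (edgeR adjusted p = 0.0106), and it overlaps the pseudogene Gm7666 on its own strand. Plek, the leukocyte protein pleckstrin, was at 2.38 ± 0.214 FPKM in Prdx1 C52S and 5.01 ± 0.888 FPKM in WT (-0.80, SE 0.19), and fell without WT 8 (edgeR adjusted p = 0.0186). Syk, a kinase downstream of leukocyte integrins, fell without WT 8 as well (edgeR adjusted p = 0.0381), and is named because it completes that count. Rasgrp2, the activator of Rap1 that opens integrins in platelets and leukocytes, went the other way, at 2.85 ± 0.18 FPKM in Prdx1 C52S and 2.26 ± 0.172 FPKM in WT (0.62, SE 0.11, edgeR adjusted p = 0.0680), and rose without WT 8 (edgeR adjusted p = 0.0313). Talin, Tln1, which most cells make, was at -0.02.

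Of 16 genes of the selectin system, 14 were tested, with a median of -0.26 and 6 lower at an unadjusted p below 0.05. Cd44, a hyaluronan receptor and E-selectin ligand, was at 2.70 ± 0.0362 FPKM in Prdx1 C52S and 5.49 ± 2.11 FPKM in WT (-0.69, SE 0.17), and fell without WT 8 (log2 fold change -0.47, edgeR adjusted p = 0.0338). St3gal4, a sialyltransferase that helps to build selectin ligands, was at 18.8 ± 2.32 FPKM in Prdx1 C52S and 35.7 ± 6.42 FPKM in WT (-0.62, SE 0.12), and fell without WT 8 (edgeR adjusted p = 0.0394). Cd34 was at 0.609 ± 0.236 FPKM in Prdx1 C52S and 3.50 ± 3.49 FPKM in WT, and its log2 fold change of -2.11 was -1.09 without WT 8. Selp, the selectin of platelets and endothelium, had a log2 fold change of 0.45 (edgeR adjusted p = 0.398).

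Of 12 other endothelial and junctional adhesion genes, 6 were lower at an unadjusted p below 0.05, and none passed with or without WT 8. Their median of -0.45 was -0.27 without that library. Jam2 was at 2.26 ± 0.444 FPKM in Prdx1 C52S and 3.78 ± 0.169 FPKM in WT (-0.46, SE 0.16), and Alcam at 7.07 ± 0.983 FPKM in Prdx1 C52S and 16.5 ± 9.77 FPKM in WT (-0.87, SE 0.31). Aoc3, the vascular adhesion protein VAP-1, was at 0.0332 ± 0.0104 FPKM in Prdx1 C52S and 0.143 ± 0.111 FPKM in WT (-1.69, SE 0.59). Alcam was at -0.43 without WT 8. Among the 10 other integrin chains the median was -0.22, and the 3 with the smallest p, Itga2 (-2.62), Itga6 (-1.42) and Itgb7 (-0.71), were at -1.42, -0.57 and -0.47 without WT 8.

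Genes that act on the endothelial members differed at a few points. In the list of 12 cytokine, receptor and NF-kB genes the median was -0.23. The interleukin-1 receptor Il1r1 was at 4.08, 3.52 and 4.39 FPKM in Prdx1 C52S 1, 2 and 4, against 16.1, 9.57 and 9.39 FPKM in WT 6, 8 and 9 (-1.28, SE 0.27, edgeR adjusted p = 0.0803), and fell without WT 8 (edgeR adjusted p = 0.0315). The NF-kB target and inhibitor Tnfaip3 was at 1.02 ± 0.131 FPKM in Prdx1 C52S and 3.11 ± 0.776 FPKM in WT (-1.30, SE 0.16, edgeR adjusted p = 0.0553), and fell without WT 8 (edgeR adjusted p = 0.0151). Nfkb1 itself was at -0.37 (SE 0.13, edgeR adjusted p = 0.131). Of 6 transcription factors known to act on leukocyte integrin genes, Runx1 was at 0.108 ± 0.0238 FPKM in Prdx1 C52S and 0.276 ± 0.0125 FPKM in WT (-1.05), and Runx3 at 0.165 ± 0.024 FPKM in Prdx1 C52S and 0.43 ± 0.141 FPKM in WT (-1.04). Irf8 was at 1.94 ± 0.414 FPKM in Prdx1 C52S and 3.77 ± 0.625 FPKM in WT (-0.66). The edgeR adjusted p-values were 0.0893 for Runx1, 0.105 for Runx3 and 0.0946 for Irf8. Spi1, which encodes PU.1, was at -0.42 with all libraries and fell without WT 8 (-0.61, edgeR adjusted p = 0.0434). Cebpb was at -0.31 with all libraries (edgeR adjusted p = 0.59), and at -0.64 without WT 8 (edgeR adjusted p = 0.0217). Its value rests on that library, which at 25.4 FPKM lay below every Prdx1 C52S library (27.1 to 31.3 FPKM). WT 6 and 9 were at 56.2 and 48.2 FPKM. Both are named because they are the 2 of this list that passed there.

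Soluble and matrix ligands of Mac-1 and VLA-4, listed together with the cell-surface protein Thy1, did not pass in any direction. None of the 6 had an unadjusted p below 0.05. Complement C3, the source of iC3b, was at 599 ± 20.1 FPKM in Prdx1 C52S and 862 ± 45.7 FPKM in WT (-0.23, SE 0.17), and fibrinogen beta, Fgb, at 555 ± 117 FPKM in Prdx1 C52S and 860 ± 191 FPKM in WT (-0.34, SE 0.26). Thy1 was at 0.581 ± 0.113 FPKM in Prdx1 C52S and 1.16 ± 0.572 FPKM in WT (-0.64, SE 0.32).

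**Figure D5:**
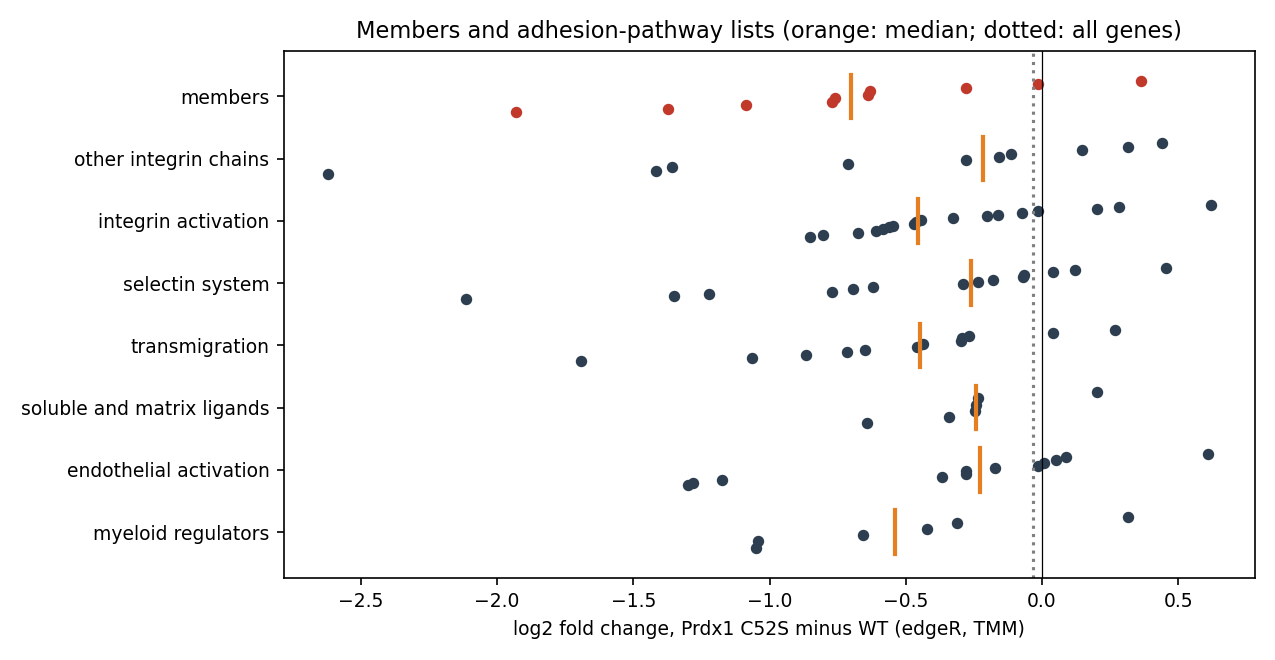
Log2 fold change, Prdx1 C52S minus WT (horizontal axis), of the 10 members and of the tested genes in 7 adhesion-pathway lists, 1 point a gene, with list medians in orange and the median of all genes dotted. The medians of all rows lie left of the dotted line, from -0.70 for the members to -0.22 for other integrin chains.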

How the data were processed

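Liver RNA of 3 Prdx1 C52S and 3 WT libraries was analysed from 1 deposited table. FPKM and estimated counts (expected counts, listed as whole numbers) were made by the authors, per the file headers. StringTie 1.3.4d, HISAT2 2.0.4 and cutadapt 1.9 are named in the submitters' processing notes, as are edgeR, DESeq2 and UMI-tools, with no roles. Libraries carried molecular identifiers and a strand mark, per the labels' protocols. The sources used here do not give whether identifiers were collapsed or counting used strand. As build the notes give mm9, but 26790 of 29642 identifiers shared with GENCODE M21 have its GRCm38 coordinates. Among the members, Itgb2 and Selplg do not, and carry the table's own. Low counts peak at 4 (6204 values, against 3538 at 3 and 1965 at 5), so 1 fragment appears to count about 4 times.

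Testing of the rounded counts used edgeR 4.0.16 (R 4.3.3; filterByExpr, TMM, robust quasi-likelihood F-test, two-sided, Benjamini-Hochberg over all genes tested). The SE is the absolute log2 fold change over the square root of F. DESeq2 1.42.0 and limma 3.58.1 were alternatives, and the scripts were tested on simulated data. Ratios and shares used exact permutation tests (scipy 1.17.1). Members and lists were chosen with earlier results of these data known. Named genes were the members, the 3 pathway genes of smallest p per list with at least 0.1 FPKM in the higher group, the first marker of each cell-type list and the 3 closest profiles of Itgam and Vcam1; others are named with the reason. 1 gene of the selectin list is not reported here.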

Additional observations from a re-analysis of the deposited data

How the results depend on the processing

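No paired analysis was possible because the groups share no replicate number. The edgeR test with all libraries called 0 genes lower and 0 higher, 0 members and 0 pathway genes; DESeq2 size factors in edgeR and log2(FPKM + 1) without a filter also called none. Genes called lower were 125 with library totals only, 91 with no filter on low counts, 1723 with DESeq2, 1006 with voom, 40 with counts divided by 4, 94 with log2(FPKM + 1) and 221 with log2(FPKM + 0.1). In the same order 35, 105, 1399, 1023, 43, 39 and 59 were higher. Members called lower were 3, 2, 7, 7, 2, 3 and 3, and pathway genes called lower 6, 2, 20, 17, 1, 2 and 7; 1 pathway gene was higher with DESeq2 and 1 with voom. Sele had too few counts to be tested once counts were divided by 4. Leaving out 1 library gave 0 to 375 genes lower, 0 to 522 higher, 0 to 5 members lower, and 0 to 9 pathway genes lower and 0 to 1 higher; calls came only without WT 8 (375 lower, 5 members) and without WT 9 (69 lower, 63 higher, 2 members). With Gm49368 added to Itgam (chosen after the values were seen) and without WT 8, 375 genes were lower, 524 higher, 5 of them members, and 9 pathway genes were lower and 1 higher. The cause of these differences between tests was not tested. The members' median of -0.70 was -1.01 with library totals and -0.95 with log2(FPKM + 0.1), and -0.75 to -0.64 when 1 library was left out. The sign of Icam2 was not stable (-0.13 to 0.071 over libraries left out). Per marker sum, Itgb2 ran from -0.20 to 0.045 and Icam2 from -0.083 to 0.092; relative to Ptprc alone, Itgb2 was at 0.25, Itga4 at 0.22 and Selplg at 0.066 against negative values with the sum. The Itgad share ran from -0.032 to 0.47 percentage points. The other 9 members kept the sign of their log2 fold change in every fit run. Depth limits Sele, at 7 to 15 fragments a library.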

Other observations

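Within 200000 bases of Itgam there were 19 other tested genes, with a median log2 fold change of -0.04, of which 2 were lower at an unadjusted p below 0.05 (Itgax and Pycard) and 1 was higher (Gm49368), beside 14.8% lower and 11.5% higher among all genes tested. Around Itgal, 25 genes had a median of -0.13, with 3 lower and 2 higher. Around Icam1, 17 genes had a median of 0.05, with 2 lower and 2 higher. Around Vcam1 none of 5 had an unadjusted p below 0.05. None of the members lies on chromosome 4 with Prdx1. These windows and genes were chosen after the values were seen, and no gene in them passed the adjusted threshold in edgeR with all libraries.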
